A study of Mus musculus with 8 samples.

Results

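Immature neutrophils that carry secondary granule RNA were examined in single-cell RNA sequencing of erythroblastic islands from lupus-prone mice. An erythroblastic island is a central macrophage with the erythroblasts, and other marrow cells, attached to it. A cell was taken as an immature neutrophil when it held at least 10 unique molecular identifiers (UMIs, counts of distinct captured RNA molecules) of Ltf, at least 2 of Mmp8, fewer than 10 of Fcnb and at most 2 of Il1b. The rule was met by 1156 of 24942 cells, a share of 4.63% with an exact 95% Clopper-Pearson interval of 4.38 to 4.90%. All intervals given here cover counting error only. The cells were thus chosen by the measured levels of Ltf, Mmp8, Fcnb and Il1b, which are given as a description only. Every other gene was read in the same cells that the rule picked, so no difference from other cells was tested.

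All mice were untreated males of the Sle1.Yaa lupus-prone strain, controls included. The labels give 2 bone marrow and 2 spleen libraries from mice that carried a human TLR8 transgene and were called Anemic, and 3 bone marrow libraries and 1 spleen library from control mice called Non-Anemic. Islands were purified over bovine serum albumin gradients and taken apart with EDTA and light mechanical force, and 10x Genomics v3.1 libraries were made. The sources used here do not give the ages of the mice, the promoter of the transgene or any pooling of animals.

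The counts came as 1 table of 19669 genes in which no column ties a cell to a library, so the cells were treated as 1 pooled sample and the effect of the transgene or of the tissue on these cells was not measured. The cell barcodes fell into 8 alphabetically sorted stretches, called barcode runs below, which were used as unnamed libraries to show spread. Cells per run numbered 447 to 6787 and UMIs per run 6195876 to 48442321. Of 24198 distinct barcodes, 287 occurred in more than 1 run and 12 in all runs. Among the immature neutrophils 11 cells had such a repeated barcode, and 0 barcodes were shared by 2 of them. Run 6 stood apart: its immature neutrophils had a median of 4436 UMIs, against 7614 to 15012 in the other runs, and results that rest on it are given with and without it.

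Neutrophils form their granules in sequence as they mature in the bone marrow. Promyelocytes fill primary granules with myeloperoxidase and serine proteases, myelocytes and metamyelocytes then fill secondary (specific) granules with lactoferrin and related proteins while division stops, and band and segmented cells add gelatinase granules, secretory vesicles and the receptors used in blood and tissue. Proteins are packed into the granule type that is forming when their genes are expressed, so granule RNA marks the stage of a cell.

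The cells carried the RNA that their name calls for. All 7 genes fixed as markers of immature neutrophils (Ltf, Mmp8, Cd177, Ly6g, Ngp, Camp and Lcn2) were above 20 CPM, the UMIs of a gene per 1000000 UMIs of the class, and their summed level was 97954 CPM, with 87706 to 119367 in the 5 runs that held at least 20 of these cells. In all other cells of the table the same sum was 19023 CPM. It was 75210 CPM in Fcnb-rich precursors and 29723 CPM in Il1b-positive neutrophils, classes defined below. The sum does not set these cells apart from Ltf-positive cells without Mmp8, also defined below. Camp and Ngp were higher in that class, at 54263 and 38024 CPM, while Lcn2, Ltf, Cd177, Ly6g and Mmp8 were lower. Ltf and Mmp8, which the rule used, are among these 7 genes and among the leading genes named next, so their presence was set by the choice of cells. The 10 leading genes against all other cells, by the ratio of levels with 10 CPM added to both, were Mmp8, Mmp9, Ly6g, Ifitm6, Retnlg, AA467197, Adam8, Olfm4, Ltf and Ceacam10. Among these, Ifitm6 stood at 4570 CPM with 315 in all other cells, and Mmp8 at 2565 CPM with 65.8.

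The upstream windows of Ltf and Mmp8, which the rule used, and of the fixed marker Cd177 are shown. Each window is the 250 bases before the gene's start in RefSeq (GRCm38.p6), written 5′ to 3′ on the gene's strand. Capitals mark the letters TTNNGNAA, the core recognised by C/EBP factors, or its reverse complement TTNCNNAA. C/EBPε, the product of Cebpe, is known as a regulator of secondary granule genes.

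Ltf (lactoferrin, which binds iron), chr9:111019042-111019291, plus strand: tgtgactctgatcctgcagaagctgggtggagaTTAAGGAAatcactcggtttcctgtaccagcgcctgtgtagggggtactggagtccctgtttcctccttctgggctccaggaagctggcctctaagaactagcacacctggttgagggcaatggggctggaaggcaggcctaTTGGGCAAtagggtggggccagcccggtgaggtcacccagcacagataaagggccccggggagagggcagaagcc
Mmp8 (neutrophil collagenase), chr9:7558179-7558428, plus strand: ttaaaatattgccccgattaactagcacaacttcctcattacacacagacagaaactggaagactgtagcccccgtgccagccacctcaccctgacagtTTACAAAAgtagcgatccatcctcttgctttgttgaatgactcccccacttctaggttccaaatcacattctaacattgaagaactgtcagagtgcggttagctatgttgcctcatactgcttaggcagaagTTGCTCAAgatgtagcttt
Cd177 (a surface protein that neutrophils also store in granules), chr7:24760312-24760561, minus strand: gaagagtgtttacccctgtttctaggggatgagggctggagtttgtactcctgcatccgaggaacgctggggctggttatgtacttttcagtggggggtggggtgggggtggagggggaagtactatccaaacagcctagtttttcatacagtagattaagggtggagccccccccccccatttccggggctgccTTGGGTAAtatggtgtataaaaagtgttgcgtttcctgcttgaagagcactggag

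The Ltf window held 2 matches, 217 and 75 bases before the start, and its last 20 bases lie past the start that GENCODE gives. The Mmp8 window held 2 matches, 151 and 19 bases before the start, and the Cd177 window held 1, at 55 bases. Of the other fixed markers, not shown, Camp held 0 matches, Ngp 3, Lcn2 1, and Ly6g 2 and 1 in its 2 windows. Outside the markers, Fcnb, which the rule caps, held 2, and Elane, Prtn3 and Mpo held 0. Among all 32851 windows of this length, 36.8% held at least 1 match and 10.9% at least 2, so a match is common and describes letters only. In GENCODE M21 on GRCm38, Ltf spans positions 111019271 to 111042767 of chromosome 9, Mmp8 positions 7558456 to 7568485 of chromosome 9, and Cd177 positions 24743983 to 24760311 of chromosome 7.

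The immature neutrophils were unevenly spread over the runs. Runs 1, 3 and 4 held 181, 358 and 524 of them, which was 8.29%, 8.53% and 12.4% of the cells of those runs. Runs 2 and 6 held 20 and 43, or 0.817% and 0.634% of their cells, and runs 5, 7 and 8 held 13, 13 and 4, or 0.449%, 0.746% and 0.895%. The intervals of the 3 rich runs did not overlap those of the other 5. The share of cells was 3.05% without run 4 and 6.13% without run 6. Set against the 2 neighbouring neutrophil classes described next, the cells made up 35.0% of 3299 cells (33.4 to 36.7%), from 11.5% in run 6 to 43.4% in run 1.

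**Figure D1:**
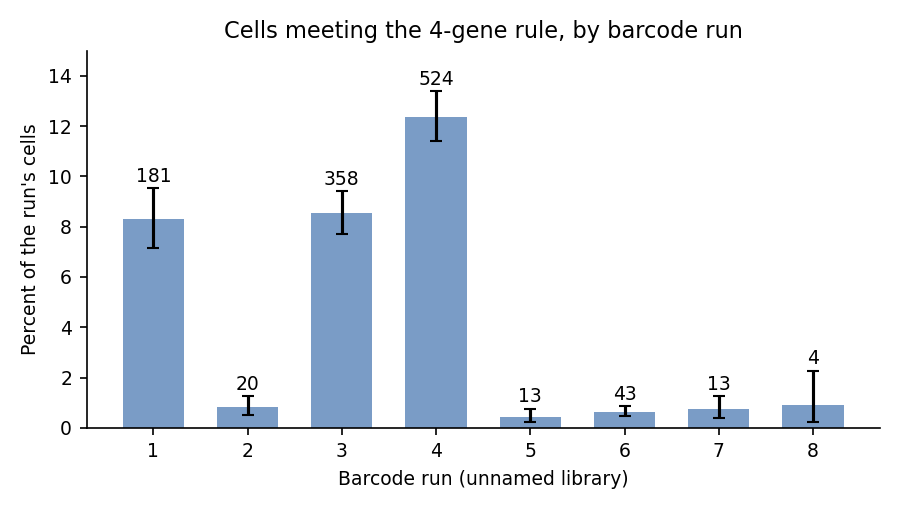
Share of cells that met the rule for immature neutrophils in each of the 8 barcode runs, in percent of the run's cells. Bars are the share, error bars the exact 95% Clopper-Pearson interval, and the number above each bar is the count of cells; runs 1, 3 and 4 lie between 8.29% and 12.4% and the other 5 runs below 1%.

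These cells were compared with 3 classes cut from the same table by UMI thresholds, which are ranges and not types. Precursors held at least 10 Fcnb UMIs and at most 2 of Il1b (1523 cells, median 23877 UMIs), where Fcnb encodes ficolin B and marks promyelocytes and early myelocytes. Ltf-positive cells without Mmp8 met the rule on Ltf, Fcnb and Il1b but held 0 Mmp8 UMIs (808 cells, median 12847 UMIs). Il1b-positive neutrophils held at least 3 Il1b, 20 S100a8 and 1 Csf3r UMI and fewer than 10 Fcnb (620 cells, median 5154 UMIs). The immature neutrophils themselves had a median of 9687 UMIs and 1762 genes. The Il1b-positive class was mixed: 139 of its cells held a UMI of the monocyte receptor gene Csf1r, so values are also given for the 423 of its cells with no Csf1r, Cd74 or Ms4a6c UMI (the restricted class).

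A gene was compared when it reached 20 CPM in either class. A gene that did not reach it in both classes passed only through the class where it was higher. The sign of its plain difference then followed from the filter. The difference of a gene is the log2 ratio of the 2 levels with 10 CPM added to each, relative to the median gene. UMIs come from the 3′ end of transcripts, so levels are compared between cells and not between genes. Genes at least 2-fold apart on that scale were called higher or lower if each run that held 20 or more cells of both classes also gave that direction. Against precursors 794 of 4601 genes (17.3%) were higher by this count and 845 (18.4%) lower, in 5 runs. Against Il1b-positive neutrophils 111 of 4006 genes (2.77%) were higher and 259 (6.47%) lower, in 4 runs. Against Ltf-positive cells without Mmp8, 253 of 4090 genes (6.19%) were higher and 322 (7.87%) lower, in 4 runs. Without run 6 the counts were 790 and 862, 121 and 284, and 251 and 310. On plain CPM the median gene shifted by -0.37, -0.28 and -0.18, and the counts of higher and lower genes became 450 and 1351, 53 and 427, and 184 and 443. These percentages are the background against which the counts in the gene lists below are read.

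Primary granule RNA was far lower in these cells than in precursors. Of 13 genes of primary granule proteins and of the promyelocyte stage, 11 reached the level filter against precursors. None was higher and 9 were lower against a background of 18.4%, with a median difference of -4.40 (-4.73 to -4.04 over the runs). Only 5 of the 13 reached 20 CPM in the immature neutrophils. The rest of those tested passed the filter only through precursors, so their lower plain level followed from it. Elane, which encodes neutrophil elastase, stood at 73.9, 17.4, 28.0, 27.0 and 50.8 CPM in the immature neutrophils of runs 1, 2, 3, 4 and 6. In precursors it ranged from 4155 to 10283 CPM over the runs, so the classes did not overlap in any run (36.2 CPM, 32.9 to 39.8, pooled, with 5378 in precursors). Prtn3 (proteinase 3) was at 54.0 and 5460 CPM in the 2 classes, Mpo (myeloperoxidase) at 35.0 and 2017, and Ctsg (cathepsin G) at 14.1 and 1012. Elane was at 0 UMIs in 914 of the 1156 cells. The exceptions were Srgn, which encodes serglycin, the proteoglycan that holds granule proteins together, and Serpinb1a, an inhibitor of the granule proteases. Srgn was at 957 CPM with 1520 in precursors and Serpinb1a at 641 with 1230, and neither was 2-fold apart from precursors relative to the median gene.

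Against Il1b-positive neutrophils the primary granule median was -1.08 over 9 tested genes, with 1 higher (Serpinb1a, 641 and 224 CPM) and 2 lower (Srgn and Ctsc). The runs ranged from -2.64 to 0.45. In the restricted class the median became 0.01, and Elane, at 110 CPM in the whole Il1b-positive class, was at 34.1 CPM there. The sign of that median therefore depended on how the Il1b-positive cells were drawn. Elane in the whole Il1b-positive class also rested on run 6, at 1354 CPM there and 17.7, 40.9, 81.0 and 5.70 CPM in runs 1, 3, 4 and 7.

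Secondary granule RNA was more abundant in these cells than in precursors or Il1b-positive neutrophils. The 23 listed genes summed to 121286 CPM, against 92340 in precursors and 46156 in Il1b-positive neutrophils. Against precursors 12 of the 23 were higher and 0 lower (background 17.3% higher), with a median of 1.32 (1.09 to 1.51 over the runs). Against Il1b-positive neutrophils 14 of 23 were higher and 0 lower (background 2.77% higher), with a median of 1.31. The medians within runs were 0.99 to 1.29. Ltf-positive cells without Mmp8 lay much closer, with a median of 0.31, 4 genes higher and 2 lower in the immature neutrophils (backgrounds 6.19% and 7.87%). The list holds Ltf and Mmp8, which the rule used.

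Individual secondary granule genes differed in which side they stood out from. Camp, which encodes the antimicrobial peptide cathelicidin, was at 37677, 28008, 36773, 32873 and 34117 CPM in the immature neutrophils of runs 1, 2, 3, 4 and 6. Pooled, it was 34750 CPM, with 42445 in precursors and 9325 in Il1b-positive neutrophils, so relative to the median gene it was close to precursors (0.08) and higher than in Il1b-positive neutrophils (2.18). Ngp, neutrophilic granule protein, was at 29675 CPM with 20962 in precursors (0.87) and 8123 in Il1b-positive neutrophils (2.15), so it too was at least 2-fold apart only from the latter. Lcn2, lipocalin 2, which captures bacterial iron carriers, was instead higher than on both sides. Lcn2 was at 20236, 21285, 19005, 16435 and 26452 CPM over the same runs and 18316 CPM pooled, with 8389 CPM in precursors (difference 1.50) and 7567 CPM in Il1b-positive neutrophils (1.56). In Ltf-positive cells without Mmp8, however, Lcn2 was at 17422 CPM, close to the level in the immature neutrophils. Ltf, used by the rule, was at 10464 CPM with 2854 in precursors and 2382 in Il1b-positive neutrophils.

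Cd177 followed the pattern of Lcn2. It was at 1089, 932, 1311, 1319 and 1358 CPM in runs 1, 2, 3, 4 and 6, above the highest precursor run (517 CPM) and the highest Il1b-positive run (574 CPM) in each of them. Pooled, it was at 1257 CPM (1236 to 1277), with 464 CPM in precursors and 525 in Il1b-positive neutrophils, differences of 1.79 and 1.53. In Ltf-positive cells without Mmp8 it was at 1125 CPM, again close. Cybb, the membrane subunit of the phagocyte NADPH oxidase, Itgb2l, an integrin beta chain, and Ceacam1 were also higher than in precursors and in Il1b-positive neutrophils. Chil3, which encodes the chitinase-like protein Ym1, was at 3507 CPM with 4692 in precursors (-0.05) and 1505 in Il1b-positive neutrophils (1.50). Cd63, a membrane protein of primary granules, was at 364 CPM with 878 and 173.

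Olfm4, which encodes olfactomedin 4, a secondary granule protein, was carried by few of the cells and in large amounts. It was at 0 UMIs in 1045 of the 1156 cells (90.4%), at 1 to 9 in 28, and at 10 or more in 83 (7.18%, 5.76 to 8.82%). The median of those 83 was 41 UMIs and the maximum 147. Cells with at least 10 UMIs numbered 14, 0, 32, 35 and 1 in runs 1, 2, 3, 4 and 6, with 1 more in run 5. They made up 7.73%, 8.94% and 6.68% of the immature neutrophils of runs 1, 3 and 4. In cells of which globin RNA made up at least 20% (7267 cells, median 8673 UMIs), 0.28% held an Olfm4 UMI. The neighbouring classes shared this trait. With each cell reduced at random to 2000 UMIs, 7.89% of immature neutrophils and 6.34% of Ltf-positive cells without Mmp8 held an Olfm4 UMI. The share was 4.07% in precursors, 4.04% in Il1b-positive neutrophils and 0.09% in globin-rich cells.

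Apart from Olfm4, the cells with and without it differed in few genes. Between the 83 cells with at least 10 Olfm4 UMIs and the 1045 with none, 2 of 3474 genes (0.0576%) were higher and 12 (0.345%) lower, in 2 runs. Those higher were Olfm4 itself, by construction, and Zfp36l1 at 77.9 and 31.3 CPM. The 12 lower genes held 5 of the 6 tested mitosis genes and 3 of the 19 tested genes of the cytoskeleton and nuclear chromatin list. Among them, and chosen here after its value was seen, was Mki67 at 9.45 and 47.3 CPM, a level that in the smaller group rests on few UMIs. Mki67, and also Top2a at 9.45 and 31.2 CPM, passed the level filter only through the cells without Olfm4. Their lower plain level therefore followed from the filter, as for any other gene under 20 CPM in the smaller group. Camp was at 33364 and 34716 CPM and Ltf at 10423 and 10446, both close between the groups. Median depth was 9782 and 9678 UMIs.

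Genes of tertiary (gelatinase) granules and secretory vesicles were higher than in precursors and near the Il1b-positive cells. Of the 17 listed genes 14 passed the filter, and these 14 were higher than in precursors, with a median of 1.99 (1.90 to 2.02 over the runs), while against Il1b-positive neutrophils 2 were higher and 2 lower with a median of 0.08. Mmp9, which encodes gelatinase B, was at 1601, 1286, 2455, 2238 and 1044 CPM in runs 1, 2, 3, 4 and 6, and precursors ranged from 2.34 to 55.3 CPM. Pooled, it was at 2118 CPM with 30.2 in precursors (6.10) and 1812 in Il1b-positive neutrophils (0.51). Anxa1, annexin A1, was higher than on both sides at 3635 CPM, with 1771 and 1433. Itgam, the alpha chain of the complement receptor CD11b/CD18, stood at 725 CPM with 233 in precursors and 436 in Il1b-positive neutrophils. The formyl peptide receptor genes Fpr1 and Fpr2 were at 89.6 and 331 CPM, against 0.932 and 19.3 in precursors.

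Genes that mark mature neutrophils were present and lay below the Il1b-positive cells. Of the listed 26, which include Il1b of the rule, 22 were tested against precursors and 21 were higher (median 2.57, 2.03 to 2.80 over the runs). Against Il1b-positive neutrophils 0 of 26 were higher and 13 lower (background 6.47% lower), with a median of -1.26 (-1.51 to -0.86). Retnlg, resistin-like gamma, was at 10558, 9619, 11623, 11903 and 7480 CPM in runs 1, 2, 3, 4 and 6. The pooled level was 11480 CPM, with 147 in precursors, 22186 in Il1b-positive neutrophils and 28297 in the restricted class. Cxcl2, a chemokine that draws neutrophils, was at 2207 CPM with 117 and 9069, and its immature neutrophil runs, at 2610, 1710, 2510, 1619 and 3040 CPM, varied less than 2-fold. Cxcr2, the receptor through which neutrophils leave the marrow, was at 209 CPM with 15.1 and 502. Ccl6 and Ifitm1 were at 54.7 and 44.6 CPM, with 1278 and 1151 in Il1b-positive neutrophils, among the widest gaps in that direction (-4.03 and -4.13).

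Surface receptor genes were likewise higher than in precursors, in 17 of 24 tested genes with a median of 1.56, and near the Il1b-positive cells, with 5 of 23 higher, 4 lower and a median of -0.11. Ly6g, the classical surface marker of mouse neutrophils, was the clearest exception. It was at 903, 688, 991, 913 and 1174 CPM in runs 1, 2, 3, 4 and 6, all above the highest run of precursors (107 CPM) and of Il1b-positive neutrophils (463 CPM). Pooled, Ly6g stood at 926 CPM (909 to 944), with 80.9 in precursors, 412 in Il1b-positive neutrophils and 490 in the restricted class. Csf3r, the receptor for granulocyte colony-stimulating factor, was at 163 CPM with 65.4 and 803, the last in a class chosen to hold Csf3r. Cxcr4, which retains neutrophils in marrow, was at 101 CPM with 45.8 and 162. Its run values were 65.3, 34.8, 106, 124 and 23.1 CPM.

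For Ly6g and Cxcr2, shares of cells with a UMI at equal depth gave the order of classes that the levels gave. Each cell was reduced at random to 2000 UMIs, and shallower cells were left out, which removed 16 of the 1156 immature neutrophils, 1 precursor and 50 Il1b-positive cells. Ly6g was then found in 75.6% of immature neutrophils (73.0 to 78.1%; 96.3% before thinning), 12.3% of precursors, 41.2% of Il1b-positive neutrophils and 0.20% of globin-rich cells. Cxcr2 was found in 35.4%, 2.63%, 63.3% and 0.06% of the same classes. Both genes were far above the share in globin-rich cells, where they serve as a background of free RNA.

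**Figure D2:**
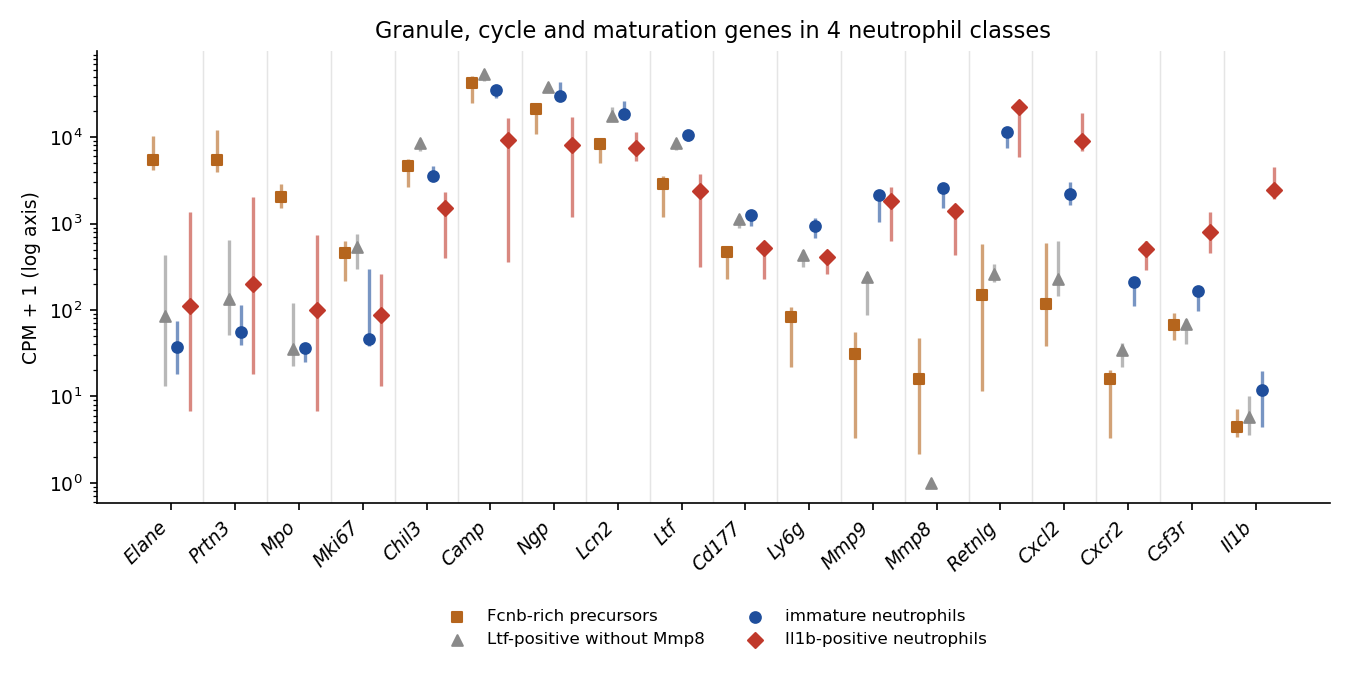
Levels of 18 genes in 4 classes of cells, as CPM plus 1 on a log axis. Points are pooled levels and vertical lines run from the lowest to the highest barcode run with at least 20 cells of the class. The immature neutrophils (circles) lie far below precursors (squares) for Elane, Prtn3 and Mpo. They lie above precursors and Il1b-positive neutrophils (diamonds) for Lcn2, Ltf, Cd177 and Ly6g, and between these classes for Retnlg, Cxcl2, Cxcr2 and Csf3r. The Il1b-positive class was chosen to hold Csf3r.

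Division genes were low in the immature neutrophils, with run 6 apart. Of 27 mitosis genes, 26 were tested against precursors and 23 were lower and 0 higher, with a median of -2.05 (-2.36 to -0.58 over the runs, and -2.13 without run 6). Of 24 DNA replication genes, 23 were tested and all 23 were lower, with a median of -1.96. Only 6 of the mitosis genes and 1 of the replication genes reached 20 CPM in the immature neutrophils. The rest of those tested passed the filter only through precursors, so their lower plain level followed from it. Mki67, the proliferation marker Ki-67, was at 51.1, 76.5, 37.4, 38.6 and 296 CPM in runs 1, 2, 3, 4 and 6, the last of these inside the precursor range of 217 to 630 CPM. The pooled level was 45.4 CPM, with 454 in precursors. Run 6 also had 180 CPM of Top2a, topoisomerase II alpha, against 20.2 to 90.4 in the other 4 runs. At 2000 UMIs a cell, 4.74% of immature neutrophils (3.58 to 6.14%; 14.5% before thinning) and 55.3% of precursors held a Mki67 UMI, while 62.6% of globin-rich cells did, so this share has no class here that should lack the gene. Against Il1b-positive neutrophils 0 of 13 tested mitosis genes were higher and 0 lower (median -0.48). Among cyclins, inhibitors and related brakes, Btg2 and Cdkn1b, both inhibitors of division, were higher than in precursors at 694 and 77.0 CPM, with 167 and 35.4, and Cdk6 was lower at 11.1 CPM with 117.

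RNA for making proteins was lower as well. In a list of 83 cytosolic ribosomal protein genes, added after the data were seen, 78 of 81 tested were lower than in precursors and 0 higher, with a median of -1.98 (-2.04 to -1.45). The list summed to 29706 CPM in immature neutrophils, 148598 in precursors and 55266 in Il1b-positive neutrophils. Rpl12 was at 155, 309, 102, 87.2 and 388 CPM in runs 1, 2, 3, 4 and 6, and at 1593 CPM in precursors. Against Il1b-positive neutrophils 10 of 81 were lower and 0 higher, with a median of -0.63.

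Most listed transcription factors that stood apart from precursors were higher. Of 20 tested factors 9 were higher and 1 lower than in precursors, with a median of 0.95. Cebpe, needed for secondary granules, was at 272, 209, 251, 254 and 323 CPM in runs 1, 2, 3, 4 and 6. Pooled, Cebpe was at 254 CPM with 517 in precursors (-0.62) and 90.3 in Il1b-positive neutrophils (1.68), the 1 factor of 23 tested that was higher than in the latter. Cebpb, the related factor of mature and activated cells, was at 773 CPM with 366 and 2911 (-1.62). Klf2, Junb, Klf6, Egr1 and Fosl2 were higher than in precursors.

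Several of those factors are immediate early genes, which respond within minutes to handling of cells, and their levels differed widely between runs. Of 16 tested immediate early genes 12 were higher than in precursors and 0 lower, with a median of 1.63, a run range of 0.88 to 1.70 and a median of 1.56 without run 6. Klf2 was at 3607, 4203, 2735, 4106 and 305 CPM in runs 1, 2, 3, 4 and 6, and Dusp1 at 550.1, 521, 539, 1195 and 32.3. Fos was at 860, 876, 872, 1666 and 37.0 CPM. Run 6 was the lowest for all 3 genes. Its precursors were low as well, with 58.5 CPM of Fos in the lowest precursor run. Against Il1b-positive neutrophils 6 of 17 were lower and 0 higher.

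Antimicrobial effector genes outside the granules were abundant. S100a8 and S100a9, the subunits of calprotectin, made up a median of 35.8% of a cell's UMIs, from 2.73 to 47.6% over the cells. S100a8 was at 168344, 171281, 175436, 193287 and 113758 CPM in runs 1, 2, 3, 4 and 6. The pooled level of 180598 CPM compared with 111020 in precursors (1.07) and 122153 in Il1b-positive neutrophils (0.85). S100a6 and S100a11 had another pattern, highest in the Il1b-positive cells: S100a6 was at 4757 CPM with 222 in precursors and 9660 in Il1b-positive neutrophils. Of 8 tested genes of the NADPH oxidase, which makes superoxide, 3 were higher than in precursors and 2 higher than in Il1b-positive neutrophils, with 0 lower in either. Cybb was at 1938 CPM with 1002 and 888. Fth1, ferritin heavy chain, which stores iron, was at 3834 CPM with 1037 and 7316.

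Interferon-induced genes lay between the classes. Of 18 tested genes 15 were higher than in precursors and 0 lower (background 17.3% higher; median 1.77, 1.68 to 2.09 over the runs). Of 28 tested against Il1b-positive neutrophils 0 were higher and 11 lower (background 6.47% lower, median -0.58, -0.88 to -0.26). Of the 38 listed genes 17 reached 20 CPM in the immature neutrophils. The others tested against Il1b-positive neutrophils passed the filter only through that class, so their lower plain level followed from it. Ifitm3, an antiviral membrane protein, was at 2083, 2513, 1457, 1401 and 2051 CPM in runs 1, 2, 3, 4 and 6. It was at 1627 CPM pooled, with 335 in precursors (2.62) and 1848 in Il1b-positive neutrophils (0.10). Slfn4, a Schlafen gene of myeloid cells, was at 315 CPM with 29.6 and 343. Isg15, a ubiquitin-like modifier, was at 35.5 CPM with 12.1 and 134, and Ifit3 at 2.47 CPM with 0.27 and 39.7. Ifi27l2a was at 178 CPM with 9.95 and 907. The groups that would show an effect of the transgene on these genes could not be formed.

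Toll-like receptors, which sense microbial molecules, had low levels in these cells. Of 24 receptors and partners 11 were tested against precursors, with 4 higher (Cd14, Tlr2, Tirap and Tlr13) and 1 lower (Hsp90b1). Tlr2, the receptor for bacterial lipoproteins, was at 40.0, 31.3, 53.4, 56.0 and 111 CPM in runs 1, 2, 3, 4 and 6. It was at 52.3 CPM pooled with 6.50 in precursors and 218 in Il1b-positive neutrophils. Tlr13, a sensor of bacterial ribosomal RNA, was at 33.3 CPM with 1.65 and 86.5. Tlr4 and Tlr7, receptors for lipopolysaccharide and single-stranded RNA, were at 4.43 and 10.7 CPM, under the 20 CPM filter. Mouse Tlr8 had 24 UMIs, or 2.05 CPM (1.31 to 3.04), with 0.11 in precursors and 4.02 in Il1b-positive neutrophils. Tlr9 had 0 UMIs (interval up to 0.31 CPM).

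Cytokine and NF-κB genes followed the mature pattern. Against precursors 8 of 12 were higher (background 17.3%) and against Il1b-positive neutrophils 12 of 20 were lower (background 6.47%), with 0 in the opposite direction in either. Of the 25 listed genes 12 reached 20 CPM in the immature neutrophils. The others tested against Il1b-positive neutrophils passed the filter only through that class, so their lower plain level followed from it. Nfkbiz, an atypical inhibitor of NF-κB that aids some targets, was at 865 CPM with 72.2 and 1199. Il1rn, the interleukin-1 receptor antagonist, was at 113 CPM with 4.91 and 153. Nfkbia was at 719, 365, 529, 682 and 2564 CPM in runs 1, 2, 3, 4 and 6, highest in run 6. Il1b itself was capped by the rule and was at 0 UMIs in 1051 of the 1156 cells. Wfdc17, Ccl4, Ctss, Apoe, Ms4a6c and Cd74 were among the genes lowest against the Il1b-positive class. In the restricted class, which was chosen to lack Cd74 and Ms4a6c, Ctss fell from 192 to 26.8 CPM and Apoe from 191 to 29.2, while Wfdc17 stayed at 799 and Ccl4 at 219.

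**Figure D3:**
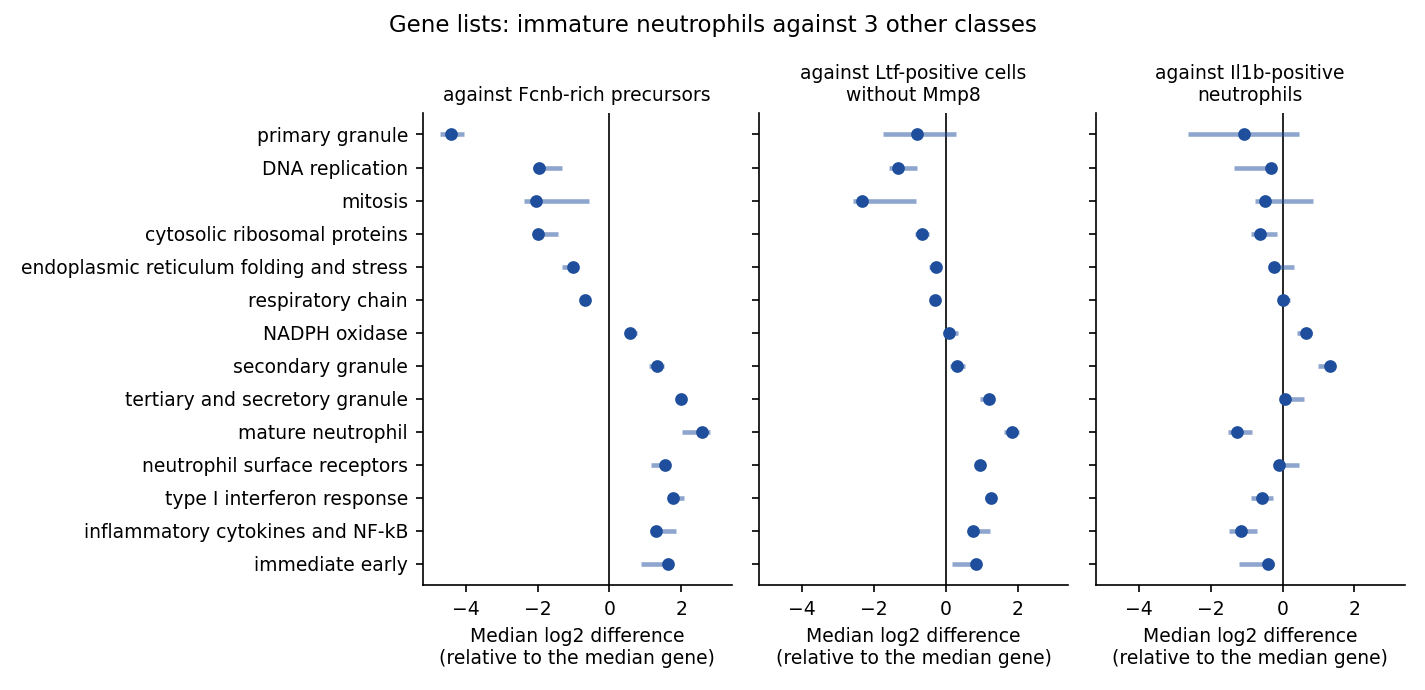
Median log2 difference of 14 gene lists between immature neutrophils and each of 3 other classes, relative to the median gene. Points are the pooled medians and horizontal lines run from the lowest to the highest run compared; primary granule genes lie at -4.40 and mature neutrophil genes at 2.57 against precursors, and the mature list lies at -1.26 against Il1b-positive neutrophils.

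The Ltf-positive cells without Mmp8 formed a comparison added after the data were seen. Cells of that class already held secondary granule RNA, with Camp at 54263 CPM, Ngp at 38024 CPM and Ltf at 8518 CPM, and the secondary granule median differed by 0.31. Division genes were high in that class: Mki67 was at 532 CPM, and all 26 tested mitosis genes were lower in the immature neutrophils, with a median of -2.35 (-2.59 to -0.85 over the runs). Of the 27 listed mitosis genes 6 reached 20 CPM in the immature neutrophils, so most were tested only through the class without Mmp8. The cells with Mmp8 had more mature neutrophil RNA, with 19 of 22 genes higher and 0 lower (median 1.84), and more tertiary granule RNA, with 11 of 14 higher (median 1.19). Retnlg was at 258 CPM without Mmp8 and 11480 with it, and Mmp9 at 239.8 and 2118. Thbs1, thrombospondin 1, was at 23.7 and 315 CPM, and its runs with Mmp8 ranged from 17.4 to 542. Chil3 and Cebpe were higher in the cells without Mmp8, at 8496 and 520 CPM, although Cebpe was not 2-fold apart on the centred scale. Ptma, prothymosin alpha, and Stmn1, stathmin, were at 1630 and 403 CPM there and at 198 and 43.5 CPM in the immature neutrophils.

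The threshold on Mmp8 crossed a gradient. In cells that met the rest of the rule and held 0, 1, 2 and 3 Mmp8 UMIs (808, 98, 39 and 35 cells), Mki67 was at 532, 379, 215 and 179 CPM. Retnlg was at 258, 477, 598 and 1074 CPM and Mmp9 at 239.8, 615, 854 and 1236 in the same steps. Camp changed little, at 54263, 53161, 53057 and 46788 CPM. In Retnlg and Mki67 the cells just inside the threshold lay closer to those just outside it than to the pooled immature neutrophils, at 11480 and 45.4 CPM. At the threshold on Ltf, cells with 8 to 9 UMIs that met the rest and cells with 10 to 11 (20 cells each) had 38574 and 38991 CPM of Retnlg and 6969 and 6458 CPM of Camp. At the threshold on Fcnb, cells with 8 to 9 UMIs (13 cells) and 10 to 11 (6 cells) had 620.0 and 498 CPM of Mmp8. At the threshold on Il1b, cells with 2 UMIs (22 cells) and 3 (15 cells) had 28594 and 31920 CPM of Camp. All these values follow from the choice of cells and are given as a description.

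The immature neutrophils varied among themselves along the same line. They were divided into 3 parts of near equal size (386, 385 and 385 cells) by the percentage of their UMIs that came from Retnlg, with bounds at 0.324% and 1.62%, a split chosen after the data were seen. From the low to the high part Camp was at 47403, 35008 and 17047 CPM and Ngp at 36417, 32022 and 17501. Lcn2 went from 20444 to 14628 CPM and Chil3 from 5524 to 1034. Mmp8, Mmp9, Cxcl2 and Cxcr2 went the other way. Mmp8 was at 1409, 2902 and 3736 CPM, Cxcl2 at 842, 2305 and 3961, and Cxcr2 at 108, 202 and 356. Cd177 was nearly level at 1242, 1292 and 1233 CPM, as was S100a8 at 180868, 178986 and 182227. Mki67 was at 82.7, 27.6 and 16.3 CPM, and the median depth was 10972, 9970 and 8473 UMIs, so depth moved with the order, and its part in the result was not tested.

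Between the high and the low part, 139 of 3599 genes (3.86%) were higher and 105 (2.92%) lower, in 3 runs. Of the mature neutrophil list, which holds Retnlg, 19 of 25 tested genes were higher and 0 lower (median 1.49). Of the mitosis list 10 of 13 were lower and 0 higher (median -1.17). Genes under 20 CPM in the high or the low part passed the level filter only through the other part. The sign of their plain difference then followed from the filter. Mki67 and Top2a were such genes, at 16.3 and 9.24 CPM in the high part. The genes named next were chosen after their values were seen. Zmpste24, a protease of the nuclear envelope that processes prelamin A, was at 26.5 CPM in the high part and 332 in the low part. Orm1, an acute phase protein, was at 20.3 and 209 CPM, and Lta4h, which makes leukotriene B4, at 77.6 and 355. Higher in the high part were Stfa2l1, a stefin, at 383 and 16.6 CPM, Prok2, prokineticin 2, at 85.3 and 5.16, and Il1f9, an interleukin-1 family cytokine, at 230 and 32.7. Nlrp3, the inflammasome sensor, was at 103 and 15.9 CPM.

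**Figure D4:**
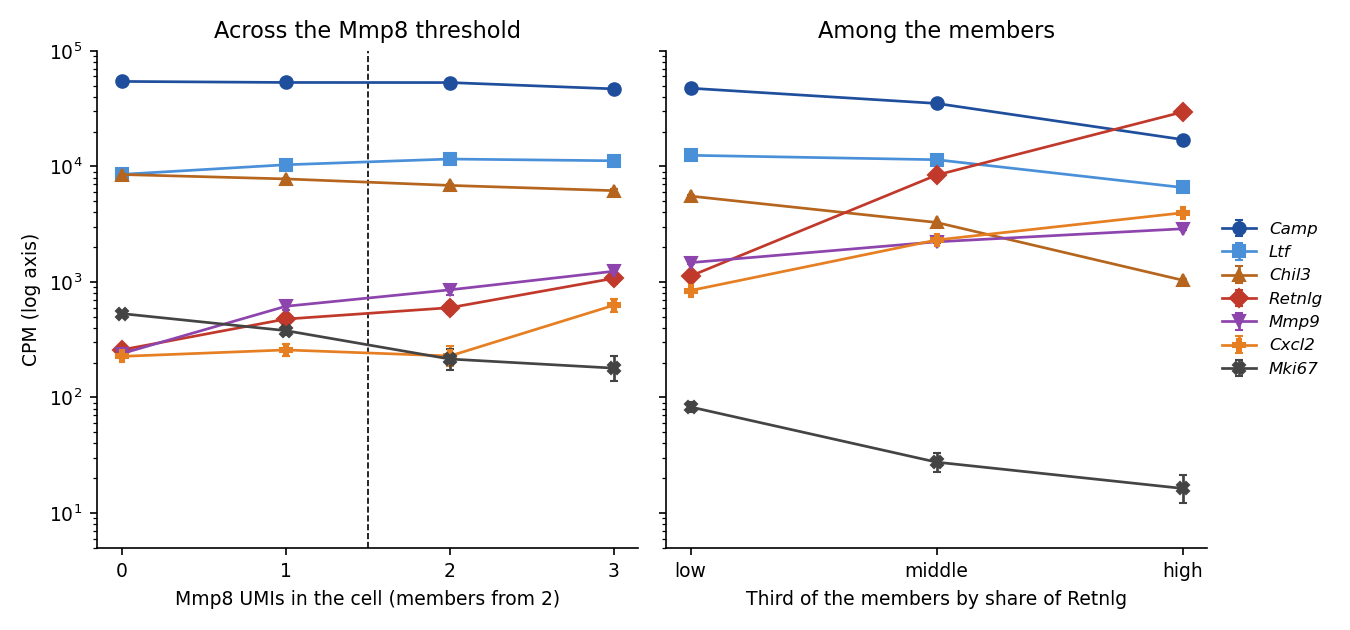
Levels of 7 genes in CPM on a log axis, at left in cells with 0 to 3 Mmp8 UMIs that met the rest of the rule (the dashed line marks the threshold of 2) and at right in 3 parts of the immature neutrophils ordered by their share of Retnlg UMIs. Error bars are exact 95% Poisson intervals; Camp goes from 47403 to 17047 CPM and Cxcl2 from 842 to 3961 CPM over the right panel, while Mki67 goes from 532 to 179 CPM over the left one.

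The amount of Fcnb left in a cell gave the same order. The 947 cells with 0 Fcnb UMIs, the 154 with 1 to 3 and the 55 with 4 to 9 had 3035, 1429 and 751 CPM of Mmp8, 14078, 4482 and 2783 CPM of Retnlg, and 30428, 46120 and 49717 CPM of Camp. Mki67 was at 21.3, 68.1 and 204 CPM. Depth rose along these bins, from a median of 9327 to 11859 and 15129 UMIs. With each cell at 2000 UMIs, Retnlg was at 15090, 4980 and 2282 CPM and Camp at 28923, 44376 and 51764. Mki67 was then at 22.5, 104.6 and 90.9 CPM. Its intervals for 1 to 3 and for 4 to 9 Fcnb UMIs overlapped (71.5 to 148 and 43.6 to 167 CPM), so its rise between those bins was not kept at equal depth. Along Il1b, the 1051, 83 and 22 cells with 0, 1 and 2 UMIs had 2148, 2464 and 3844 CPM of Cxcl2.

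RNA of other cell types was low, apart from globin. The 8 erythroid markers summed to 1836 CPM, with 545 to 4006 over the runs, and 966 of the cells held at least 10 erythroid UMIs, while in all other cells the sum was 201336 CPM. The 6 B cell markers summed to 5.03 CPM and the 8 macrophage markers to 29.7 (19.7 to 59.1), and 0 and 4 of the cells held at least 10 UMIs of them. The 6 T or NK cell markers summed to 22.8 CPM, with Klrb1c and Ncr1 at 0. The 6 monocyte markers summed to 1275 CPM, of which Ly6c2, shared with neutrophils, gave 1259. The 4 platelet markers summed to 38.9 CPM, from 6.95 to 614.5 CPM in run 6. The 9 eosinophil markers summed to 49.0 CPM, near the 60.5 CPM of all other cells. At least 1 UMI of them was found in 363 of the cells and at least 10 in 1. The 4 plasma cell markers summed to 55.2 CPM, with 1241 in all other cells, and 425 of the cells held a UMI of them. The part of these RNAs in the differences above was not tested.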

How the data were processed

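The values deposited by the authors are UMI counts, whole numbers with no scaling, in 1 table for all libraries. Cell Ranger 5.0.0, Seurat 3.1.5 and mm10 are named per the submitters' processing notes, and what filters were set on cells or genes is not given in the sources used here. No column of another sample was found (0 columns). Counts were summed over the cells of a class and scaled to CPM with numpy 2.4.6, scipy 1.17.1 and pandas 2.3.3 under Python 3.11.15 (plots in matplotlib 3.10.9), with exact 95% Poisson intervals for levels and Clopper-Pearson intervals for shares. Between classes, 10 CPM was added to both levels and genes under 20 CPM in both were left out. No doublet caller was run; counts of cells with UMIs of other lineages are given instead. With 1 pooled sample there is no test and no p-value.

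The cells, the gene lists (25 lists of 561 entries, ribosomal genes added later) and the comparisons were chosen with earlier results of these data known. Named genes were the 12 highest and 12 lowest of those at least 2-fold apart in each planned comparison, list members 2-fold apart, up to 5 of each list by level, the 10 leading genes, the 4 genes of the rule and 6 Toll-like receptors; others are said to be chosen after their values were seen. Predicted genes, mitochondrial genes and antigen receptor segments were not named. Some list members are not reported here. Promoter windows come from RefSeq and gene spans from GENCODE M21. The comparison was tested on simulated data. Alternatives covered scaling, the added constant, filters, thresholds, thinning, repeated barcodes, globin, the totals and each run left out.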

Additional observations from a re-analysis of the deposited data

How the results depend on the processing

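The limits lie in the definition of the classes, in depth and in the 1 pooled sample. The share of cells, 4.63%, became 4.33% with at least 20 Ltf UMIs and 5.67% without cells under 500 genes or over 10% mitochondrial UMIs, and it ran from 3.05% to 6.13% with each run left out in turn. Against precursors, 450 genes were higher and 1351 lower on plain CPM, and 511 and 1487 with no filter on level. Against Il1b-positive neutrophils, 53 were higher and 427 lower on plain CPM and 65 and 406 with no filter. The higher count there was 190 with 1 CPM added, 173 with cells thinned to 2000 UMIs, 57 without Csf1r-positive cells and 69 in the restricted class. The median of primary granule genes, -1.08 against Il1b-positive neutrophils, changed sign to 0.093 without Csf1r-positive cells and 0.0081 in the restricted class, which hold fewer cells. Against Ltf-positive cells without Mmp8, a filter at 50 CPM, added after the data were seen, left 161 higher and 210 lower, with fewer genes tested. The share of immature neutrophils with a Mki67 UMI was 2.51% at 1000 and 7.73% at 4000 UMIs, and with a Top2a UMI 1.65% and 5.0%, against 4.74% and 2.63% at 2000. Of the values for single genes under all alternatives, 1911 stayed within the limits set and 44 moved, and of the list medians 1229 stayed, 76 moved and 2 changed sign. No paired analysis was possible because the columns carry no replicate number of the labels; classes were compared within barcode runs instead.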

Other observations

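Genes of energy metabolism and protein folding were counted in the same way. Of 18 glycolysis genes tested against precursors 4 were higher and 1 lower, with a median of 0.42 beside 17.3% and 18.4% over all genes. Pygl, which breaks down glycogen, was at 578 CPM with 226 in precursors, and Slc2a3, a glucose transporter, at 395 CPM with 50.6. Tpi1, a glycolytic enzyme, was the lower one, at 49.5 CPM with 166. Respiratory chain genes had 6 of 23 lower and 0 higher (median -0.69), and genes of folding in the endoplasmic reticulum 9 of 17 lower and 0 higher (median -1.03), among them Calr, a chaperone, at 81.3 CPM with 322. Against Il1b-positive neutrophils the medians of these 3 lists were 0.21, 0.00 and -0.24.

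Genes of leukotriene synthesis were not uniform. Alox5ap, the protein that presents arachidonate to 5-lipoxygenase, was at 1263 CPM with 569 in precursors and 1498 in Il1b-positive neutrophils. Lta4h, which makes leukotriene B4, was at 233 CPM with 417 and 87.5, and Ltb4r1, the receptor for that lipid, at 387 CPM with 296 and 180.4. Among apoptosis genes Mcl1, a survival factor of neutrophils, was at 1073 CPM with 427 in precursors and 1673 in Il1b-positive neutrophils, and Bax, a death effector, was at 19.8 CPM with 68.9 and 42.3.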
